A study of Arabidopsis thaliana with 30 samples.

Results

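Between the 2nd and 3rd day of growth in white light, 52 of 22746 Arabidopsis probe sets were lower by at least 2 log2 units (4-fold) in both the wild type and the pifq mutant. This account follows the 7 of them whose wild-type signal had moved by no more than 1 log2 unit, 2-fold, after 3 h of added far-red light. A probe set is the group of array probes that reads 1 transcript, and the 7 were chosen by these differences of group means, taken from the values reported here. Gene symbols of several families were also to be left out, which removed 0 probe sets. Of the 7, 5 read a single locus in the annotation used: AT4G22490, AT4G01700, AT2G43140, AT1G29980 and AT1G34510. Probe set 267237_s_at matched several genes and 261768_at had no gene in that annotation, so both are called by their probe set names. None of the 5 loci had a symbol or a product name there, so no role is given for them.

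A seedling in its first days of light passes from living on seed reserves to living on photosynthesis. Stored oil is converted to sugar, the root grows and forms root hairs, the cotyledons open and transient pigments such as anthocyanins are made, and transcripts of these early tasks decline as each is finished. Far-red light added to white light, as under a leaf canopy, turns the phytochrome light receptors to their inactive form, which lets the PIF transcription factors accumulate and starts the shade response. Whether a decline with age runs its course under far-red light can be asked of transcripts such as these. Whether the decline in white light needs the PIF proteins mutated in pifq cannot, because the choice required that decline in pifq too.

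Whole seedlings of the wild type Columbia and of pifq were used. The pifq line carries pif1, pif3, pif4 and pif5 mutations together, and its ecotype is not stated in the labels used here. All seeds were kept for 5 days at 4 °C in the dark, and all seedlings grew without sucrose for 2 days at 21 °C in continuous white light at 19 µmol/m2/s, its red to far-red ratio being 6.48; this start is called WL0. WL24 seedlings had 24 h more of the same light. The others had far-red light added, which brought the ratio to 0.006, and were taken after 1 h, 3 h and 24 h as FR1, FR3 and FR24. Each of these 10 groups of genotype and light held 3 biological replicates grown separately, with 1 array each.

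The values are log2 RMA signals, and a level is given as mean ± SD (n = 3 arrays). Arrays of 1 group correlated at 0.9945 to 0.9983 over the probe sets, and no array repeated another. The mutated genes were each without a named probe set (0 of 4), and the genotype labels could not be checked on them. Of markers for the organs of a whole seedling, the Rubisco activase gene RCA of green tissue had group means of 13.71 to 13.96 and the root hair expansin gene EXPA18 of 6.61 to 8.62. Probe sets differ in how strongly they bind, so such levels are not compared between genes. With whole seedlings, fewer cells of a type and less RNA per cell cannot be told apart. As 1 line stands for each genotype, an effect of the mutations cannot be told apart from one of line or seed stock.

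In white light, AT4G22490 had the largest drop of the 7. The 3 wild-type arrays stood at 9.18, 9.16 and 9.35 at WL0 and at 6.35, 6.08 and 5.77 at WL24, 8.94-fold lower on average. In pifq the WL0 arrays read 9.66, 9.37 and 9.44 and the WL24 arrays 6.88, 6.35 and 6.51, 7.51-fold lower. The arrays of the 2 times were clear of each other in both genotypes.

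AT2G43140 gave low signals. Its wild-type arrays read 6.07, 6.32 and 6.76 at WL0 and 4.08, 3.60 and 4.14 at WL24. The pifq arrays read 6.13, 6.24 and 5.92, and then 3.98, 4.08 and 3.77. RMA compresses the differences of dim probe sets, so the difference of -2.45 log2 units in the wild type may understate the change of the transcript.

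The other 5 lay closer together. The unnamed probe set 261768_at went from 8.26 ± 0.11 to 5.87 ± 0.12 in the wild type and from 8.43 ± 0.07 to 6.16 ± 0.18 in pifq. Probe set 267237_s_at went from 7.26 ± 0.07 to 4.91 ± 0.25 and, in pifq, from 7.23 ± 0.19 to 5.03 ± 0.25. The differences of these 2 probe sets lay between -2.39 and -2.20 log2 units over both genotypes.

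AT1G34510 went from 7.83 ± 0.06 to 5.58 ± 0.14 in the wild type and from 8.05 ± 0.06 to 5.77 ± 0.43 in pifq, in which 1 WL24 array read 6.26 beside 5.48 and 5.56. AT4G01700 went from 8.10 ± 0.13 to 5.92 ± 0.11, and in pifq from 8.35 ± 0.18 to 6.24 ± 0.28. AT1G29980, the nearest to the threshold, went from 7.71 ± 0.14 to 5.70 ± 0.20 and in pifq from 8.07 ± 0.08 to 6.05 ± 0.36. No array at WL24 reached the lowest WL0 array of its genotype in any of the 7, but these drops chose the probe sets and carry no test.

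**Figure D1:**
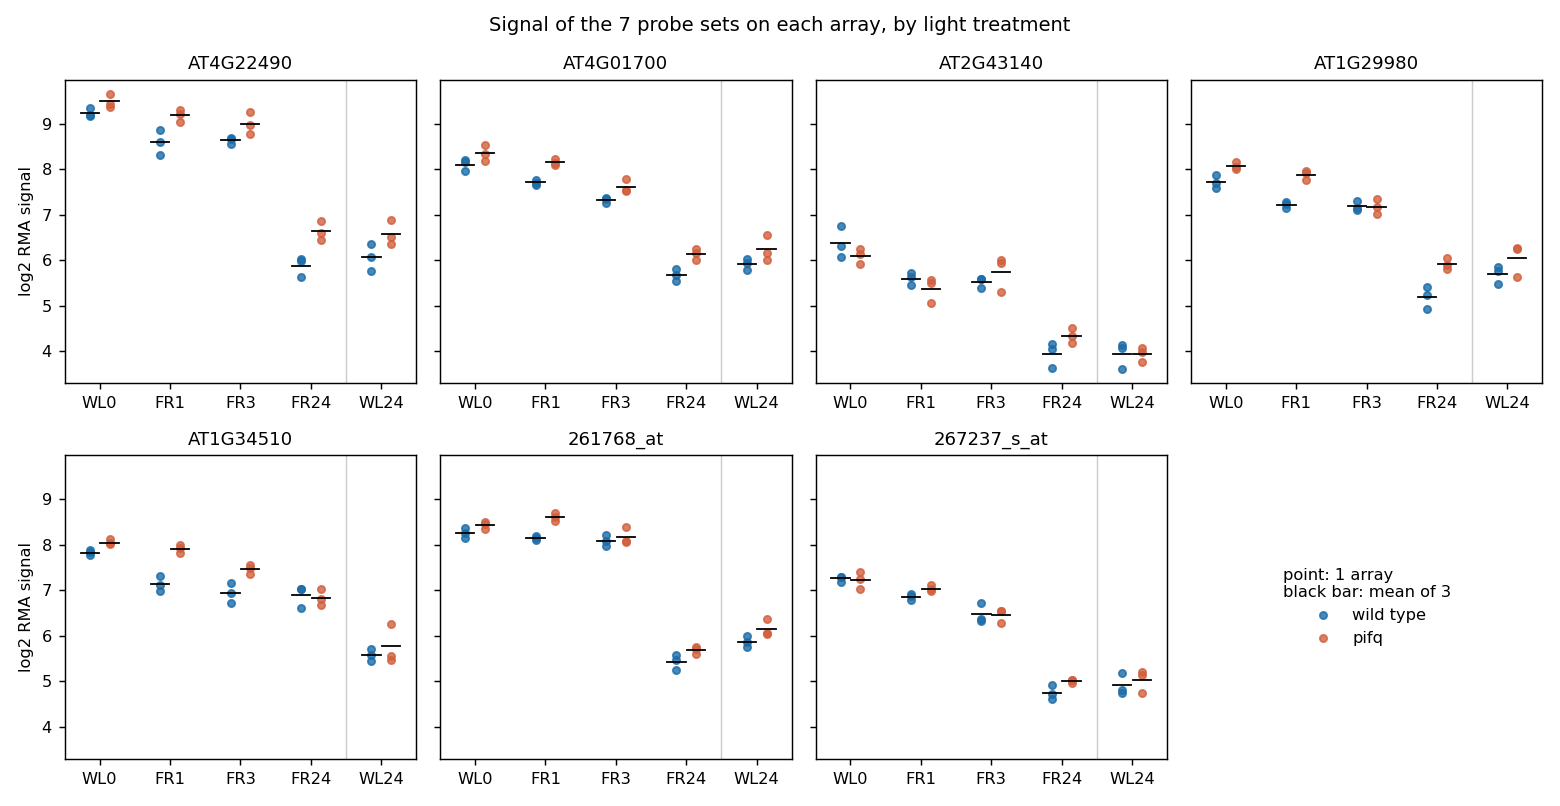
Log2 RMA signal of each of the 7 probe sets (vertical axis) in the 5 light treatments (horizontal axis), with 1 point per array and a black bar at the mean of 3 arrays, wild type in blue and pifq in orange. Within each probe set, the means up to FR3 lie well above those of both 24 h treatments, except that AT1G34510 reads 6.89 in the wild type and 6.83 in pifq at FR24, against 5.58 and 5.77 at WL24.

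The signals at FR1 and FR3 against WL0 are given as a description, since WL0 and the wild-type FR3 arrays chose the probe sets. At FR1 all 7 were below WL0 in the wild type, by differences from -0.79 for AT2G43140 to -0.11 for 261768_at. In pifq 6 of 7 were below it, down to -0.73 for AT2G43140, and 261768_at was at 0.18. Over all probe sets, 56.1% in the wild type and 51.5% in pifq were below WL0 at FR1. In the wild type, FR3 minus WL0 ran from -0.90 for AT1G34510 to -0.17 for 261768_at, with a median of -0.77 over the 7 against 0.00 over all probe sets. All 7 were again below WL0, beside 49.8% of all probe sets. A band of 1 log2 unit around no change therefore did not mean that the 7 stood still. Probe set 261768_at moved least, with wild-type arrays at 8.21, 8.09 and 7.98 at FR3 against 8.15, 8.26 and 8.37 at WL0, ranges that overlap. In pifq, whose FR3 arrays had no part in the choice, the same difference ran from -0.90 for AT1G29980 to -0.25 for 261768_at.

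Just inside the thresholds lay AT1G29980, with -2.01 and -2.02 in white light, AT1G34510, with -0.90 at 3 h, and AT4G01700, with -2.12 in pifq. Just outside lay AT5G02590, at -1.99 in the wild type, the methionine aminopeptidase gene MAP1C, at -1.02 at 3 h, and AT5G04960, at -1.95 in pifq. The limits therefore cut through a continuous range of drops.

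The drop was then tested on arrays that had no part in the choice, FR24 against FR1. In the wild type, 6 of the 7 fell, each by over 2-fold, where 21.4% of all probe sets were called lower and 2.88% were called lower by at least 2-fold (limma, adjusted p under 0.05). In pifq all 7 fell, each by over 2-fold, against 22.3% and 2.77% of all probe sets. The median change of the 7 was -2.03 in the wild type and -2.02 in pifq, beside 0.03 and -0.01 over all probe sets. FR24 seedlings were also older than FR1 seedlings, so age and hours in far-red light cannot be told apart here.

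Probe set 261768_at fell furthest. Its wild-type arrays read 8.19, 8.16 and 8.11 at FR1 and 5.59, 5.46 and 5.24 at FR24, a change of -2.72 ± 0.10 (SE; limma adjusted p = 1.21e-19). The pifq arrays read 8.61, 8.52 and 8.69, and then 5.60, 5.75 and 5.72, a change of -2.91 ± 0.10 (limma adjusted p = 4.35e-20). In both genotypes the groups were far apart.

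AT4G22490 fell by 2.71 ± 0.15 in the wild type (limma adjusted p = 2.29e-15), from 8.86, 8.59 and 8.30 at FR1 to 6.02, 5.62 and 5.98 at FR24. In pifq it fell by 2.55 ± 0.15 (limma adjusted p = 1.24e-14), from 9.22, 9.04 and 9.29 to 6.86, 6.60 and 6.44. Again no array of 1 group reached the other.

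AT4G01700 and AT1G29980 each lost about 2 log2 units. AT4G01700 read 7.76, 7.65 and 7.70 at FR1 in the wild type and 5.68, 5.55 and 5.81 at FR24, a change of -2.03 ± 0.11, and in pifq it changed by -2.02 ± 0.11. AT1G29980 read 7.28, 7.24 and 7.14, and then 4.93, 5.23 and 5.40, a change of -2.03 ± 0.13, beside -1.96 ± 0.13 in pifq. The wild-type groups of both were clear of each other, with limma adjusted p of 1.53e-15 and 7.5e-14.

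For 267237_s_at the wild-type arrays went from 6.88, 6.92 and 6.78 to 4.72, 4.61 and 4.91, a change of -2.11 ± 0.12, beside -2.04 ± 0.12 in pifq; both were called. AT2G43140 showed the smallest called fall of the wild type. Its arrays went from 5.71, 5.62 and 5.45 at FR1 to 4.16, 3.64 and 4.04 at FR24, a change of -1.65 ± 0.18 (limma adjusted p = 3.39e-09). In pifq it went from 5.56, 5.05 and 5.50 to 4.33, 4.50 and 4.17 and fell by 1.03 ± 0.18 (limma adjusted p = 1.24e-05), without overlap of the groups.

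AT1G34510 was the exception of the wild type. Its arrays read 7.31, 6.99 and 7.12 at FR1 and 6.61, 7.04 and 7.02 at FR24, so that the groups overlapped, and the change of -0.25 ± 0.14 was not called (limma adjusted p = 0.176). The 95% interval of that change ran from -0.54 to 0.05 log2 units. Without WT FR24 replicate 1 the change was -0.11 (limma adjusted p = 0.632). In pifq the arrays went from 7.81, 7.93 and 8.0 to 6.68, 7.02 and 6.80, a change of -1.08 ± 0.14 (limma adjusted p = 2e-07), and the groups did not overlap.

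**Figure D2:**
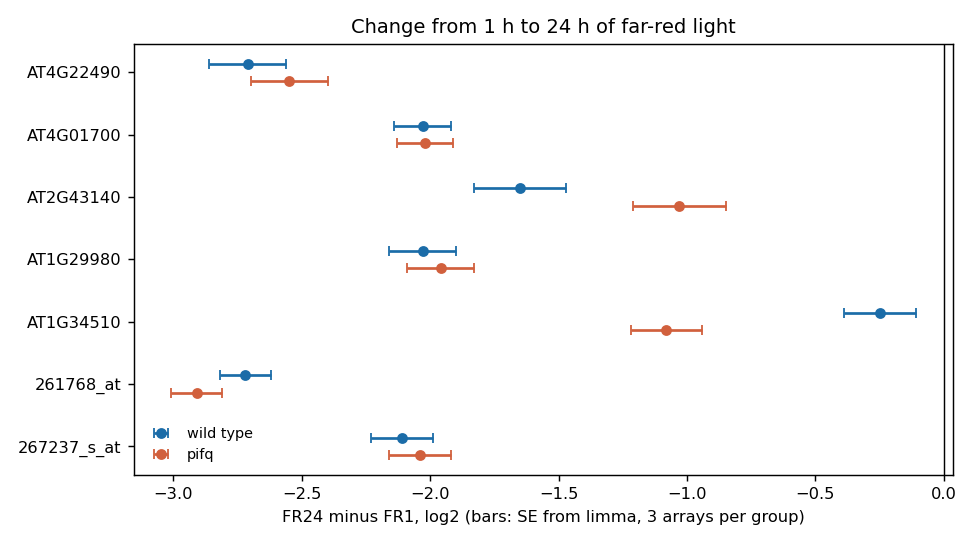
Change in log2 signal from 1 h to 24 h of far-red light (horizontal axis) for each of the 7 probe sets, with the SE from the limma fit, wild type in blue and pifq in orange, 3 arrays per group. The 2 genotypes lie close together for most of the 7 and are apart for AT1G34510, at -0.25 in the wild type and -1.08 in pifq.

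Whether the fall under far-red light differed between genotypes was tested as the change in pifq minus the change in the wild type. The difference was called for 1 of the 7, AT1G34510, at -0.83 ± 0.20 (limma adjusted p = 0.0102), where 3.46% of all probe sets were called negative and 3.71% positive. For AT2G43140 the difference was 0.62 ± 0.25, the fall being smaller in pifq, and did not pass the threshold (limma adjusted p = 0.133). For the other 5 it lay between -0.19 and 0.16. The 95% intervals of these 5 went no lower than -0.48, for 261768_at, and no higher than 0.60, for AT4G22490. This bounds any difference in their falls to well under the falls themselves. The choice had required a white-light drop of at least 2 log2 units in pifq too. Transcripts whose drop fails in pifq could therefore not be among the 7.

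Levels under far-red light were higher in pifq for several of the 7. At FR1, 5 were called higher and 0 lower, beside 7.08% called higher and 6.56% called lower over all probe sets. The median difference of the 7 was 0.45, with 6 of 7 above 0, beside 52.2% of all probe sets. The trait was not particular to the 7. Of the other 45 probe sets with drops of at least 2 log2 units in both genotypes, 44 were above 0, with a median of 0.66. The largest difference was that of AT1G34510, with 0.78 ± 0.14 (limma adjusted p = 0.000422) and all 3 pifq arrays, at 7.81 or more, above the highest wild-type array, at 7.31. AT1G29980 was higher by 0.66 ± 0.13 and AT4G22490 by 0.60 ± 0.15, and AT4G01700 and 261768_at were both higher by 0.45. The call for AT4G22490 ended without WT FR1 replicate 3, at 0.46 with an adjusted p of 0.0562. AT2G43140 differed by -0.23 ± 0.18 and 267237_s_at by 0.18 ± 0.12, neither of them called.

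At FR24, 3 of the 7 were called higher in pifq and 0 lower, against 4.47% of all probe sets called higher and 3.85% lower. The median difference was 0.39 for the 7 and 0.15 for the other 45 with both drops, with 6 of 7 and 36 of 45 above 0. Over all probe sets, 44.8% were above 0. AT4G22490 was higher by 0.76 ± 0.15 (limma adjusted p = 0.00106), with pifq arrays at 6.86, 6.60 and 6.44 above the wild-type arrays at 6.02, 5.62 and 5.98. AT1G29980 was higher by 0.72 ± 0.13 (limma adjusted p = 0.000388), its pifq arrays at 5.80, 5.89 and 6.04 standing clear of the wild-type 4.93, 5.23 and 5.40. AT4G01700 was higher by 0.46 ± 0.11, a call that ended without WT FR24 replicate 2 (0.39, adjusted p = 0.0589). AT1G34510, the most different at FR1, differed by -0.06 ± 0.14 at FR24, with a 95% interval from -0.35 to 0.23. The remaining 3 differed by 0.26 to 0.39 and were not called.

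**Figure D3:**
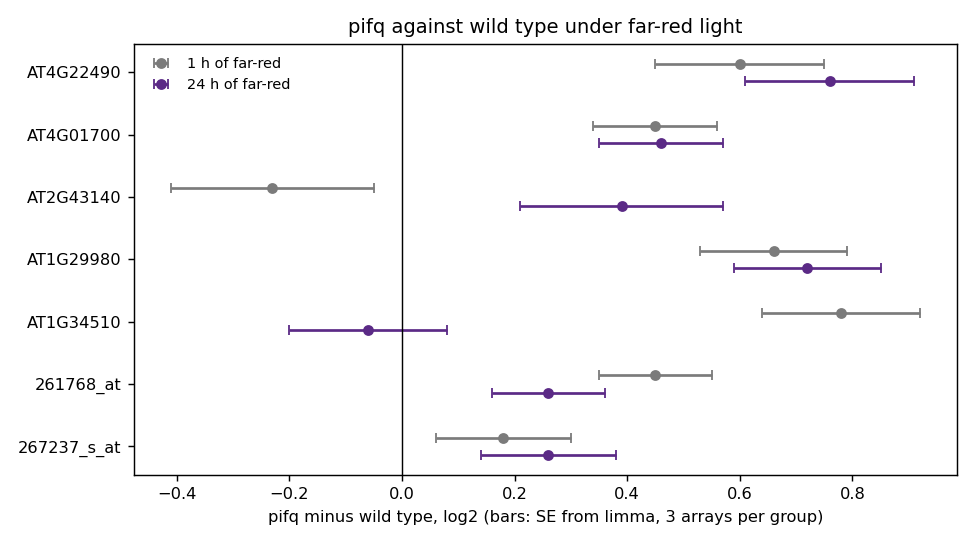
Difference in log2 signal between pifq and the wild type (horizontal axis) at 1 h (grey) and 24 h (purple) of far-red light for each of the 7 probe sets, with the SE from the limma fit, 3 arrays per group. AT4G22490, AT4G01700 and AT1G29980 are higher in pifq at both times, by 0.45 to 0.76, while AT1G34510 goes from 0.78 to -0.06.

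At WL0, WL24 and FR3 the comparison of genotypes holds arrays that chose the probe sets, and no test is given. At WL0 pifq minus wild type ran from -0.29 for AT2G43140 to 0.36 for AT1G29980, at WL24 from 0.00 for AT2G43140 to 0.51 for AT4G22490, and at FR3 from -0.01 for AT1G29980 and 267237_s_at to 0.52 for AT1G34510. The medians over the 7 were 0.22, 0.28 and 0.23, beside -0.01, 0.01 and 0.00 over all probe sets.

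In pifq, FR1 and FR3 could be compared on arrays which the choice had not used. Of the 7, 5 were called lower at FR3 than at FR1, where 7.57% of all probe sets were called lower, and 0 by at least 2-fold, against 0.149% of all probe sets. AT1G29980 fell by 0.70 ± 0.13 (limma adjusted p = 0.000312), from 7.91, 7.77 and 7.95 to 7.01, 7.16 and 7.35. Probe set 267237_s_at fell by 0.59 ± 0.12, AT4G01700 by 0.54 ± 0.11 and 261768_at by 0.43 ± 0.10.

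The fifth, AT1G34510, fell by 0.45 ± 0.14 (limma adjusted p = 0.0298), a call that ended without pifq FR1 replicate 2 (adjusted p = 0.0746) or 3 (0.11), or without pifq FR3 replicate 1 (0.136) or 3 (0.0541). AT4G22490, at -0.19 ± 0.15, and AT2G43140, at 0.38 ± 0.18, were not called. The AT2G43140 arrays at FR3 were spread, at 5.30, 6.01 and 5.93, and without replicate 1 its difference of 0.60 was called higher (adjusted p = 0.0297). From FR3 to FR24 the difference then ran from -2.49 for 261768_at to -0.63 for AT1G34510. For each of the 7 it was larger in size than from FR1 to FR3. The interval from FR1 to FR3 was far shorter, so the sizes do not compare the rates per hour.

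Set beside WL24 arrays of the same age, FR24 arrays show what far-red light left of each transcript after 24 h; WL24 arrays had chosen the probe sets, so these are values without a test. In the wild type AT1G34510 was higher at FR24 by 1.31 log2 units, with arrays at 6.61, 7.04 and 7.02 against 5.44, 5.72 and 5.59, which did not overlap. In pifq it was higher by 1.06, at 6.68, 7.02 and 6.80 against 5.48, 5.56 and 6.26. For the other 6 the difference lay between -0.52, for AT1G29980, and 0.01, for AT2G43140, in the wild type, and between -0.46, for 261768_at, and 0.39, for AT2G43140, in pifq. Most of these differences were below 0, and AT2G43140 in pifq was the largest above it, with arrays at 4.33, 4.50 and 4.17 at FR24 against 3.98, 4.08 and 3.77 at WL24, which did not overlap.

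The other 45 probe sets with drops of at least 2 log2 units in both genotypes had passed the 3 h limit, 44 of them on the low side. Their FR24 minus WL24 had a median of 0.66 in the wild type and 0.31 in pifq, with 13 and 5 of 45 at or above 1. The median of the 7 was -0.20 and -0.02, with 1 of 7 at or above 1 in each genotype. Over all probe sets, 0.791% in the wild type and 0.339% in pifq were at or above 1. From FR1 to FR24 the 45 had a median change of -1.16 in the wild type and -1.70 in pifq. Of the 45, 27 and 40 were lower by at least 1 log2 unit, beside 6 and 7 of the 7. Over all probe sets, 2.88% and 2.77% were. In the wild type, each of the 7 but AT1G34510 changed by more than that median of the 45, while in pifq AT1G34510 and AT2G43140 changed by less. The 3 h limit itself had split the 7 from the 45. Against WL0, the 45 at FR1 had a median of -0.82 in the wild type and -0.43 in pifq. The 7 had -0.49 and -0.20. The changes left from FR1 to FR24 therefore depend in part on the choice, and the 2 sets were not tested against each other.

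**Figure D4:**
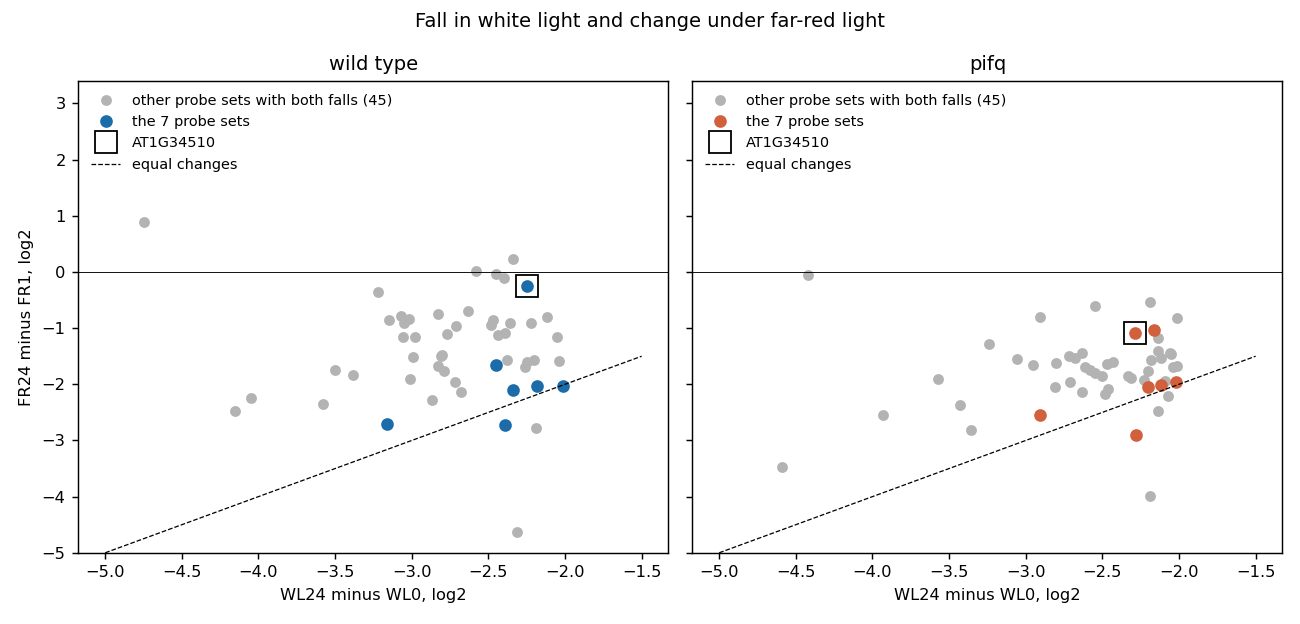
Change from FR1 to FR24 (vertical axis, log2) against the drop from WL0 to WL24 (horizontal axis, log2) in the wild type and in pifq, for the 7 probe sets in colour and the other 45 with drops of at least 2 log2 units in both genotypes in grey. The dashed line marks equal changes, and most of the 7 lie near it. AT1G34510 (square) lies at -0.25 in the wild type and -1.08 in pifq. AT2G43140 also lies off the line in pifq, at -1.03 against -2.16 in white light.

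Genes of known early tasks were read from 8 lists, of which 21 of 95 genes had a probe set named here and 0 were among the 7. Only these 21 are called measured. The other listed genes may have probe sets that the annotation used left without a single-locus name. For oil mobilisation, 3 of 18 genes were measured and all 3 were called lower at FR24 than at FR1 in each genotype, where 21.4% and 22.3% of all probe sets were. ICL, the isocitrate lyase of the glyoxylate cycle, fell most, with -1.73 ± 0.13 in the wild type and -1.28 ± 0.13 in pifq, beside the lipase gene SDP1 and beta-oxidation gene AIM1 at -0.38 to -0.24. ICL missed the choice through its difference of -1.56 in pifq in white light. Of 14 flavonoid genes 4 were measured, and 3 in the wild type and 4 in pifq were called lower, beside the same 21.4% and 22.3% of all probe sets. DFR, of anthocyanin synthesis, changed by -2.47 ± 0.19 and, in pifq, by -3.47 ± 0.19, but unlike the 7 it was already at 3.99 ± 0.31 at FR3 in the wild type, from 7.52 ± 0.03 at WL0.

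Of 15 root hair genes the expansin genes EXPA7 and EXPA18 were measured, and both fell from FR1 to FR24, with -0.69 ± 0.09 and -0.76 ± 0.10 in the wild type and -1.23 ± 0.09 and -1.09 ± 0.10 in pifq. Both were called lower in each genotype, where 21.4% of all probe sets were in the wild type and 22.3% in pifq. The fall of EXPA7 differed between genotypes by -0.55 ± 0.13 (limma adjusted p = 0.00972), in the same direction as that of AT1G34510, and that of EXPA18 by -0.33 ± 0.15 (limma adjusted p = 0.181). At FR24 against WL24 they were higher by 0.85 and 0.67 in the wild type, beside 1.31 for AT1G34510, and by 0.29 and 0.38 in pifq, beside 1.06. Such values were not particular to root hair genes. The genotype difference of the changes was also called negative for the flavonoid genes UF3GT (-1.05 ± 0.18) and DFR (-0.99 ± 0.27). The same held for the antenna gene LHCB4.3 (-0.88 ± 0.16) and the seed gene AtLEA4-1 (-0.78 ± 0.17). It was called positive for the seed gene OLEO3 (0.79 ± 0.20) and for LHCB4.2 (0.45 ± 0.10). Over all probe sets, this difference was called negative for 3.46% and positive for 3.71%. At FR24 against WL24, LHCB4.3 was higher by 1.91 in the wild type and 0.88 in pifq. The part of root hair cells in the values of AT1G34510 was not tested.

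Seed and photosynthesis genes gave both rises and falls over the same hours. Late embryogenesis genes, which protect the drying seed, had 3 of 10 measured, with 2 called higher and 0 lower from FR1 to FR24 in the wild type and all 3 higher in pifq, where 21.2% and 20.8% of all probe sets were called higher. AtLEA4-1 rose by 1.72 ± 0.12 and 0.94 ± 0.12. The oil body gene OLEO3, the 1 seed storage gene measured of 13, fell by 0.89 ± 0.14 in the wild type and changed by -0.10 ± 0.14 in pifq (limma adjusted p = 0.617). Of 14 photosystem and antenna genes 8 were measured, with 2 lower and 2 higher in the wild type and 0 lower and 4 higher in pifq. Over all probe sets, 21.4% were called lower and 21.2% higher in the wild type, and 22.3% and 20.8% in pifq. The wild-type counts of these 8 genes were near those shares. The lists for abscisic acid and dormancy and for endosperm had 0 genes with a probe set named here, so endosperm left on the seedlings was not tested.

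Of the 30 protein-coding genes up to 3 places to either side of the 5 loci on the chromosome, 8 had a probe set of their own named here: 3 beside AT2G43140, 2 each beside AT4G01700 and AT1G34510, 1 beside AT4G22490 and 0 beside AT1G29980. WL24 minus WL0 of these 8 ran from -0.30 to 0.52 in the wild type and from -0.30 to 0.54 in pifq. Their wild-type levels at WL0 lay between 3.15 and 8.01, and the lowest of these leave little room for a drop to show.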

How the data were processed

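Each sample was hybridised to a 1-colour Affymetrix array. The deposited table holds log2 signals that the authors made with RMA, per the submitters' processing notes, running from 2.42 to 14.16 with array medians of 5.56 to 5.64. The version is not given in the sources used here. RMA gives the arrays like distributions, which hides any shift common to most transcripts. Control probe sets, 64 in number, took no part, and the 22746 that remained were all tested, whatever their level. Names from the platform annotation and the RefSeq table gave a single locus for 13436 of these, more than 1 gene for 503, only a gene ID for 77 and nothing for 8730. None of the 5 loci had a further probe set with a single-locus name. Probe sets without a name, or with more than 1 gene, were not searched for these loci. No promoter or protein sequence was used here.

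With limma 3.58.1 in R 4.3.3, each group of the 30 arrays had its own mean in a single fit (20 residual and 9.44 prior degrees of freedom). Two-sided p-values of 6 comparisons were adjusted (Benjamini-Hochberg) across all 22746 probe sets, and a call is an adjusted p under 0.05. Changes are log2 differences ± SE. The 15 arrays of WL0, WL24 and wild-type FR3 chose the 7 probe sets, and comparisons holding them are given without a test. All 7 entered every test. The 7, the gene lists and the tests were chosen with earlier results of these data known. The naming rule took those of the 7 with a locus and a symbol, of the loci without one the 8 with the largest wild-type fall from FR1 to FR24 and those called for the difference of the falls (here all 5), the 3 nearest probe sets on each side of the thresholds, and up to 4 genes of each list with the largest change. The 2 probe sets without a single locus are outside that rule and are named because they are 2 of the 7; RCA was named after its values were seen. The fit was tested on simulated data. Only 3 arrays per group limit the precision. Alternatives were the arrays in the fit, a replicate block, array weights, a trended robust prior, centring on array medians, a filter on dim probe sets and leaving out each array.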

Additional observations from a re-analysis of the deposited data

Results flagged for a closer look

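The change of AT1G34510 from 1 h to 24 h of far-red light differed between the genotypes by a test of that difference, at -0.83 ± 0.20 for pifq minus wild type (limma adjusted p = 0.0102). All 3 pifq arrays at FR24, at 6.68 to 7.02, were below the lowest at FR1, at 7.81, while the wild-type arrays of the 2 times overlapped. The levels of the genotypes lay 0.78 apart at FR1 and -0.06 apart at FR24. Set against WL0 as a description, FR1 was at -0.69 in the wild type and -0.14 in pifq. FR24 was at -0.94 and -1.22. The tested difference of -0.83 stayed called under every alternative run, from -0.97 to -0.76 with limma adjusted p of 0.00153 to 0.0346. The direction was not particular to AT1G34510. For the other 45 probe sets with both drops, the median of pifq minus wild type was 0.66 at FR1 and 0.15 at FR24. Their median change from FR1 to FR24 was -1.16 in the wild type and -1.70 in pifq. The difference between these changes was not tested for the 45 as a set.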

How the results depend on the processing

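The falls from FR1 to FR24 kept their direction and their call under every alternative run, except that AT2G43140 was not tested among probe sets at or above the median level, which left 5 and 6 falls of 6 tested. With the replicate block, the members called were 6 and 7 for the falls, 1 for their difference, 3 and 5 for the genotype at FR24 and FR1 and 5 for FR3 against FR1 in pifq, all as without it; deviations of same-numbered arrays correlated at -0.208 to 0.284, over 0.1 in 19 of 135 pairs, so the numbers were not taken as pairs. Leaving out 1 array gave 864 to 2273 probe sets called for the difference of the falls (1630 with all arrays), 1713 to 3281 for the genotype at FR1 (3102), 2031 to 3155 for FR3 against FR1 in pifq (3404) and 1292 to 1643 for the genotype at FR24 (1891), where a fit of only the 6 arrays compared gave 1225. The lowest of these came without WT FR1 replicate 1 (864 and 1713) and without pifq FR3 replicate 1 (2031), and leaving out pifq FR1 replicate 1 gave 1072 and 1906. Values not called turned sign without 1 array: the difference of the falls ran from -0.06 to 0.08 for AT4G01700 and from -0.06 to 0.17 for AT1G29980, and the genotype difference at FR24 from -0.20 to 0.02 for AT1G34510. The number of probe sets chosen was 6 to 9 without 1 of the arrays that chose them, 79 with a drop of 1.5, 1 (AT4G22490) with a drop of 2.5 and 1 (261768_at) with a 3 h band of 0.5. The cause of these moves was not tested. Signals near the low end, as of AT2G43140 at 24 h, limit the size of a drop that RMA can show.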
